A study of Mus musculus with 2 samples.

Results

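The miR-23, miR-27 and miR-24 genes of the mouse form a pair of paralogous clusters, Mir23a, Mir27a and Mir24-2 on chromosome 8 and Mir23b, Mir27b and Mir24-1 on chromosome 13. Together with Mir3074-1, on the strand opposite Mir24-1, these are 7 of the 2202 miRNA genes in the count tables, taken by their gene symbols. They were measured by microRNA sequencing of the gastrocnemius, which lies in the calf, at 10 days of age in 2 females of B6CASTF1/J, a first-generation hybrid of C57BL/6 and CAST mice. Total RNA was the starting material, and the labels give a size range below 30 bases. The whole muscle was the sample, so its fibres, vessels, nerve and blood contribute RNA together, and more cells of a type cannot be told apart from more RNA per cell. Each hybrid carries a CAST copy of its genome, whereas counting used a C57BL/6 reference (mm10), and reads of the parental alleles were not separated. Biological replicates 1 and 2 are described as differently numbered animals under 1 shared donor entry, and they form a single group, so no contrast between conditions exists. The spread given is the one between these 2 samples.

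A cluster of this kind is transcribed as a single primary RNA, from which Drosha and Dicer cut the separate hairpins and mature miRNAs. A mature miRNA recognises its target mRNAs mainly through its seed, the bases near its 5′ end. In muscle, miR-23a is known to repress the ubiquitin ligases of atrophy, MAFbx and MuRF1, miR-27b to repress Pax3 as myogenic progenitors enter differentiation, and miR-24 to promote myoblast differentiation. In endothelial cells the miR-23 and miR-27 families are known as regulators of vessel growth.

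The mature sequences show how the genes of both clusters differ, and the seed (bases 2 to 8) is in capitals. They are RefSeq entries of build GRCm38.p6, 5′ to 3′. The 3p arm of Mir23b, miR-23b-3p, is not shown and was not compared with miR-23a-3p.
miR-23a-3p: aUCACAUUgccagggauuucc
miR-23a-5p: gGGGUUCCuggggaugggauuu
miR-23b-5p: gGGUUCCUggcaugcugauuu
miR-27a-3p: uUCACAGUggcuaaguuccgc
miR-27b-3p: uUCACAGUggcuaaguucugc
miR-27a-5p: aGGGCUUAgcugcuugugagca
miR-27b-5p: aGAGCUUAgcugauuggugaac
miR-24-3p: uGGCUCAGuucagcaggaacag
miR-24-1-5p: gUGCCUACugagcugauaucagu
miR-24-2-5p: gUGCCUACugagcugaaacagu
miR-3074-5p: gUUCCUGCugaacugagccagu

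The miR-27-3p of both clusters have the same seed and differ by a single substitution, C19U, with the miR-27a base first and positions counted from 1 at the 5′ end. miR-24-3p is identical in Mir24-1 and Mir24-2. The 5p arms of the miR-24 genes share a seed and are 23 (miR-24-1-5p) and 22 bases (miR-24-2-5p) long. Compared position by position without a gap, they differ at 5 positions (U17A, U19C, C20A, A21G and G22U, from miR-24-1-5p to miR-24-2-5p). Both end in cagu, so an alignment with a gap would leave fewer differences. The other 5p arms differ in their seeds between the clusters, miR-23a-5p from miR-23b-5p and miR-27a-5p from miR-27b-5p. miR-3074-5p lies on the strand opposite miR-24-3p. It is likewise identical at both sites, Mir3074-1 on chromosome 13 and Mir3074-2 on chromosome 8.

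The hairpins of the miR-24 genes show the length of the identical stretch, which is in capitals.
Mir24-1: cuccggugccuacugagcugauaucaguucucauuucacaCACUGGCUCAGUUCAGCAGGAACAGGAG
Mir24-2: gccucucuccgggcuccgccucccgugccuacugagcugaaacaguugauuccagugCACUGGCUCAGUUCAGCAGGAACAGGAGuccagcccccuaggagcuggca
Mir3074-1: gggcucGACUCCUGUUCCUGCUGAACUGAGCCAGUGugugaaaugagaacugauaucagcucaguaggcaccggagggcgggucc

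Mir24-1 and Mir24-2 share 28 bases, which hold the whole of miR-24-3p, and Mir3074-1 shares 30 bases with Mir3074-2. The hairpins of Mir23a and Mir23b share a longest stretch of 20 bases, aaaucacauugccagggauu, and those of Mir27a and Mir27b one of 20 bases, uguucacaguggcuaaguuc. Among the 7 precursors, Mir24-1, Mir24-2 and Mir3074-1 share a 22-base window with a precursor elsewhere, and the other 4 share none. Such a window was present in 59 of the 332 detected genes (17.8%). With windows of 18 bases all 7 precursors share sequence, as do 25.3% of detected genes, since the 20-base stretches of the miR-23 and miR-27 hairpins hold 3 such windows each. Reads with more than 1 alignment were tallied apart and stand on no gene, and they made up 42.6% and 46.4% of the files of replicates 1 and 2. Counts of Mir24-1, Mir24-2 and Mir3074-1 therefore leave out reads that lie wholly in the shared stretch, miR-24-3p and miR-3074-5p among them, and are no measure of these mature miRNAs. Counts of the miR-23 and miR-27 genes likewise leave out any read short enough to lie within their 20-base stretch, and the number of such reads was not measured.

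The clusters differ in their surroundings. On chromosome 8, plus strand, Mir23a (ENSMUSG00000065611.1, 84208518 to 84208592), Mir27a (ENSMUSG00000065444.1, 84208672 to 84208758) and Mir24-2 (ENSMUSG00000065541.1, 84208815 to 84208921) span 404 bases with no annotated host gene on their strand. The lincRNA Gm26532 begins within the last 2 bases of Mir24-2. On chromosome 13, plus strand, Mir23b (ENSMUSG00000065599.2, 63300484 to 63300557), Mir27b (ENSMUSG00000065475.2, 63300712 to 63300784) and Mir24-1 (ENSMUSG00000105904.1, 63301208 to 63301275) span 792 bases inside 2010111I01Rik, the gene of aminopeptidase O. Mir23b lies in an intron of all 9 host transcripts that reach it. Mir27b overlaps an exon of 1 host transcript, annotated for nonsense-mediated decay, and Mir24-1 exons of 4. Mir3074-1 (ENSMUSG00000092741.2, 63301199 to 63301283, minus strand) covers Mir24-1 entirely and lies in an intron of Fancc, a gene of the Fanconi anaemia pathway. Only 1 of the 19 annotated Fancc transcripts reaches it.

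**Figure D1:**
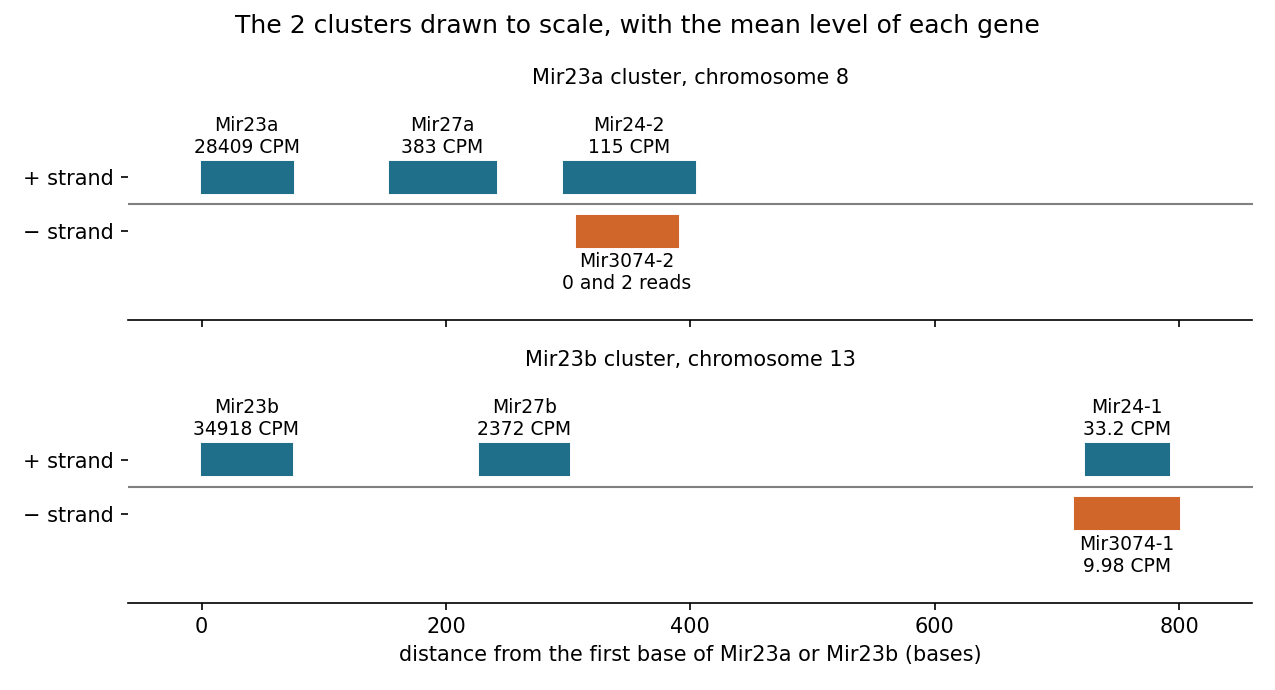
Map of the 2 clusters to scale. The x axis is the distance in bases from the first base of Mir23a or Mir23b, boxes above the line are on the plus strand and boxes below it on the minus strand. Numbers are mean sense CPM, or for Mir3074-2 the reads in replicates 1 and 2. In both clusters the miR-23 gene comes first and has the highest level.

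Depth was 3510897 sense reads on miRNA genes in replicate 1 and 3949733 in replicate 2, of 8152102 and 10176117 reads in the files. All levels are sense counts per 1e6 of these reads (CPM), and a count of 0 allows up to 0.854 and 0.760 CPM. A read covers a whole small RNA, so counts were not divided by gene length. Among markers of skeletal muscle, Mir206 stood at 105606 ± 14626 CPM (SD, n = 2) and 8 of 9 striated muscle genes were detected. The list held 11.7% and 9.61% of reads in replicates 1 and 2, with Mir206 far above the rest. Mir499 followed at 340 ± 5.66 CPM and Mir486 at 213 ± 32.4 CPM, and the lowest gene had 1.04 CPM. Mir1a-2 stood at 67.5 and 87.3 CPM in replicates 1 and 2. This order of the muscle genes is by reads placed at a single site and is no order by total abundance. Of other cell types, the endothelial list held 4.20% and 4.63% of reads in replicates 1 and 2, all on Mir126a while Mir126b had 0 reads. The smooth muscle and stroma list held 2.35% and 2.99%, the erythroid list 0.207% and 0.187%, the leukocyte list 0.0743% and 0.0654%, and the neuron list 0.00461% and 0.0172%. In the neuron list 4 of 7 genes had 0 reads. The levels and shares of all these lists leave out reads with more than 1 alignment. They are no measure of a mature miRNA that is identical in several gene copies. How many reads each list lost in this way was not measured. The part of these cell types in the levels of the 7 genes was not tested.

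All 7 genes were detected, and their mean levels ranged over 3497-fold. The miR-23 genes were far above the rest and held 6.33% ± 0.0938 of all counted reads (SD, n = 2), against 0.275% ± 0.0133 for the miR-27 genes and 0.0148% ± 0.000154 for the miR-24 genes. The last value holds only for reads placed at a single site.

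Mir23b had 122927 sense reads in replicate 1 and 137544 in replicate 2, or 35013 and 34824 CPM. Its mean of 34918 ± 134 CPM placed it 8th among all miRNA genes. This and the later places are by reads placed at a single site. They leave out the 42.6% and 46.4% of reads with more than 1 alignment, so they are no places by total abundance. Mir23a, the gene of the miRNA known to act on the atrophy ligases, had 101736 and 109962 reads, or 28977 and 27840 CPM, with a mean of 28409 ± 804 CPM in the 9th place. Both samples of Mir23b were above both samples of Mir23a.

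Mir27b, whose miRNA is known to act on Pax3, had 7970 and 9768 reads, or 2270 and 2473 CPM, with a mean of 2372 ± 144 CPM in place 55. Mir27a had 1369 and 1482 reads, or 389.9 and 375 CPM, with a mean of 383 ± 10.4 CPM in place 119. The miR-27 genes did not overlap either, and both stood well below the miR-23 gene of their own cluster.

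Mir24-2 had 409 and 450 reads, or 116 and 114 CPM, with a mean of 115 ± 1.81 CPM. Mir24-1 had 116 and 132 reads, or 33.0 and 33.4 CPM, with a mean of 33.2 ± 0.269 CPM. Mir3074-1 had 47 and 26 reads, or 13.4 and 6.58 CPM, with a mean of 9.98 ± 4.81 CPM. It was the lowest of the 7 genes in both samples, and the SD was 48.2% of its mean, against 0.383% to 6.05% for the other 6.

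The order was Mir23b, Mir23a, Mir27b, Mir27a, Mir24-2, Mir24-1 and Mir3074-1 in both libraries. Between each gene and the next, the ranges of the 2 samples did not overlap. With 2 values a gene an exact two-sided permutation test cannot go below p = 0.333, so no test of the order was made. The largest step was the 11.98-fold one from Mir23a to Mir27b, and the smallest the 1.23-fold one from Mir23b to Mir23a.

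**Figure D2:**
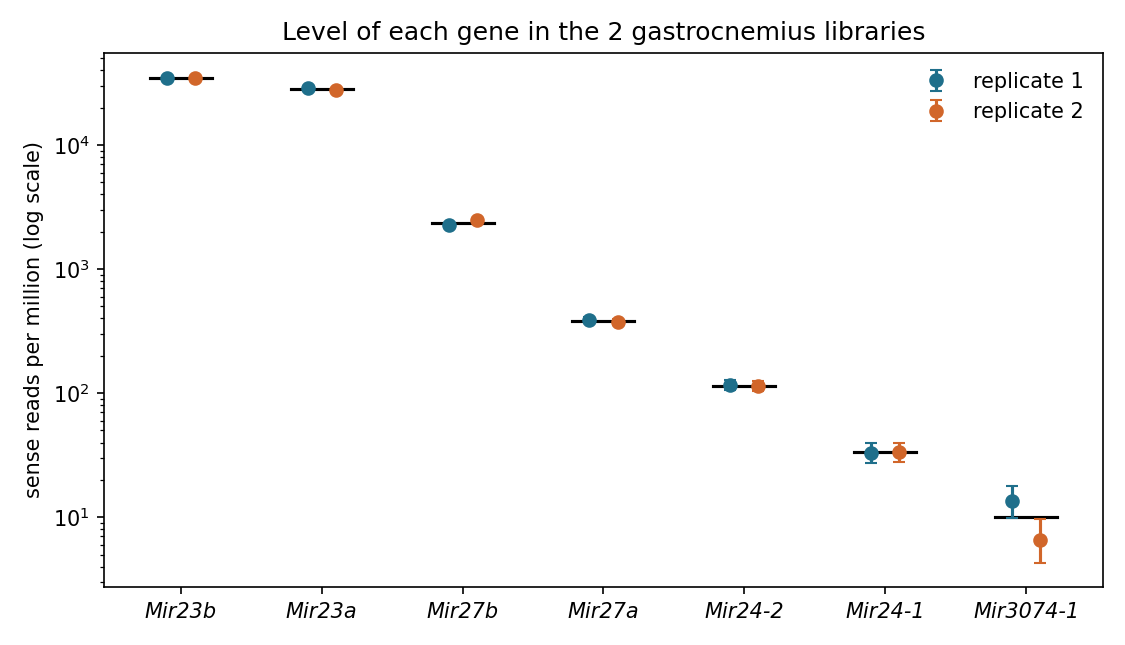
Level of each gene in both libraries. The y axis is sense CPM on a log scale, points are the 2 samples with exact 95% counting intervals, and black bars are their means. Levels fall from 34918 CPM for Mir23b to 9.98 CPM for Mir3074-1, and Mir3074-1 shows the widest gap between the samples.

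The ratio of a chromosome 13 gene to its chromosome 8 counterpart needs no scaling between libraries, and rests on reads placed at a single site. Mir23b exceeded Mir23a 1.21-fold in replicate 1 (95% counting interval 1.20 to 1.22) and 1.25-fold in replicate 2 (1.24 to 1.26). Mir27b exceeded Mir27a 5.82-fold (5.50 to 6.17) and 6.59-fold (6.24 to 6.97). For miR-24 the order was the opposite, and Mir24-2 exceeded Mir24-1 3.53-fold (2.86 to 4.37) and 3.41-fold (2.80 to 4.17).

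On the log2 scale these ratios of counts were 0.30 ± 0.035 for Mir23b over Mir23a, 2.63 ± 0.13 for Mir27b over Mir27a and -1.79 ± 0.034 for Mir24-1 over Mir24-2 (mean ± SD, n = 2). The differences among the 3 ratios exceeded the spread between the samples. The chromosome 13 genes thus supplied 54.7% and 55.6% of the miR-23 reads, 85.3% and 86.8% of the miR-27 reads, and 22.1% and 22.7% of the counted miR-24 reads in replicates 1 and 2.

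**Figure D3:**
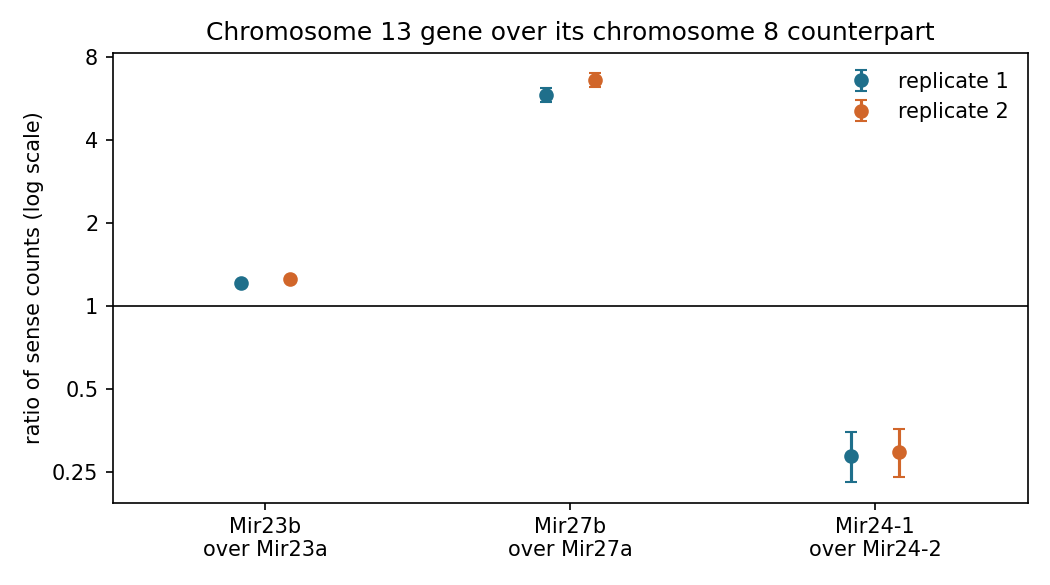
Ratio of sense counts of each chromosome 13 gene to its chromosome 8 counterpart. The y axis is a log scale, points are the 2 libraries, bars are exact 95% counting intervals and the line marks a ratio of 1. The miR-27 pair lies between 5.82 and 6.59, the miR-23 pair between 1.21 and 1.25, and the miR-24 pair below 1.

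Within each cluster the counts fell in the order of the genes, 5′ to 3′. In the Mir23a cluster, Mir23a held 98.3% of the reads in both replicates, Mir27a 1.32% in both, and Mir24-2 0.395% and 0.402%. In the Mir23b cluster, Mir23b held 93.8% and 93.3%, Mir27b 6.08% and 6.62%, and Mir24-1 0.0885% and 0.0895%. The miR-27 gene thus held a larger part of the chromosome 13 cluster than of the chromosome 8 cluster in both samples.

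The clusters together held 6.68% of the counted reads in replicate 1 (exact 95% interval 6.65% to 6.71%) and 6.57% in replicate 2 (6.54% to 6.59%). The Mir23b cluster held 3.73% ± 0.000991 and the Mir23a cluster 2.89% ± 0.0816 (SD, n = 2). Mir23a was 74.3-fold and 74.2-fold above Mir27a, whereas Mir23b was 15.4-fold and 14.1-fold above Mir27b. From the highest to the lowest gene the range was 249-fold and 244-fold in the Mir23a cluster, and 1060-fold and 1042-fold in the Mir23b cluster. Ordered by this range of mean CPM, they were 6th and 5th of 43 clusters of neighbouring miRNA genes with at least 2 detected genes, whose median range was 17.9-fold. The lowest gene of both is a miR-24 gene, whose shared reads were set aside. Over all detected genes, the 59 with a shared 22-base window had a median level of 48.4 CPM and the 273 without had 183 CPM, and the part of shared sequence in the range of the clusters was not tested.

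Between the libraries, 6 of the 7 genes differed by at most 1.09-fold and Mir3074-1 by 2.03-fold. An exact binomial test of the counts of the 2 libraries called 3 of the 7 genes at an adjusted p under 0.05, beside 41.3% of the 395 miRNA genes tested. The test sets library against library, with counting error as its only yardstick. Mir27b was higher in replicate 2 by 1.09-fold (95% interval 1.06 to 1.12, exact adjusted p = 7.21e-08), the only one of the 7 called in that direction, beside 17.0% of all genes. Mir23a was higher in replicate 1 by 1.04-fold (1.03 to 1.05, exact adjusted p = 2.86e-19), and Mir3074-1 was also called in that direction, beside 24.3% of all genes.

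Mir3074-1 was higher in replicate 1 by 2.03-fold (1.23 to 3.42, exact adjusted p = 0.00896). It was the only one of the 7 called with at least 2-fold, beside 7.09% of all genes in either direction, 3.80% higher in replicate 1 and 3.29% higher in replicate 2, but at 1.99-fold and 2.00-fold it missed that limit narrowly with TMM and with DESeq2 size factors. The other genes were not called, with folds of replicate 2 over replicate 1 of 0.962 for Mir27a (0.894 to 1.04), 0.978 for Mir24-2 (0.854 to 1.12), 0.995 for Mir23b (0.987 to 1.00) and 1.01 for Mir24-1 (0.782 to 1.31). The direction of Mir23b depended on the scaling, and with TMM it was called higher in replicate 2 by 1.01-fold (exact adjusted p = 0.000905). Of 40 genes within 2-fold of the level of Mir27b, 20 differed more between the libraries than it did, and their median absolute log2 difference was 0.13. Of 65 genes near the level of Mir3074-1, 9 differed more than it did, and the median was 0.39. The median signed log2 difference was -0.032 for the 7 genes and -0.029 over all genes tested.

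**Figure D4:**
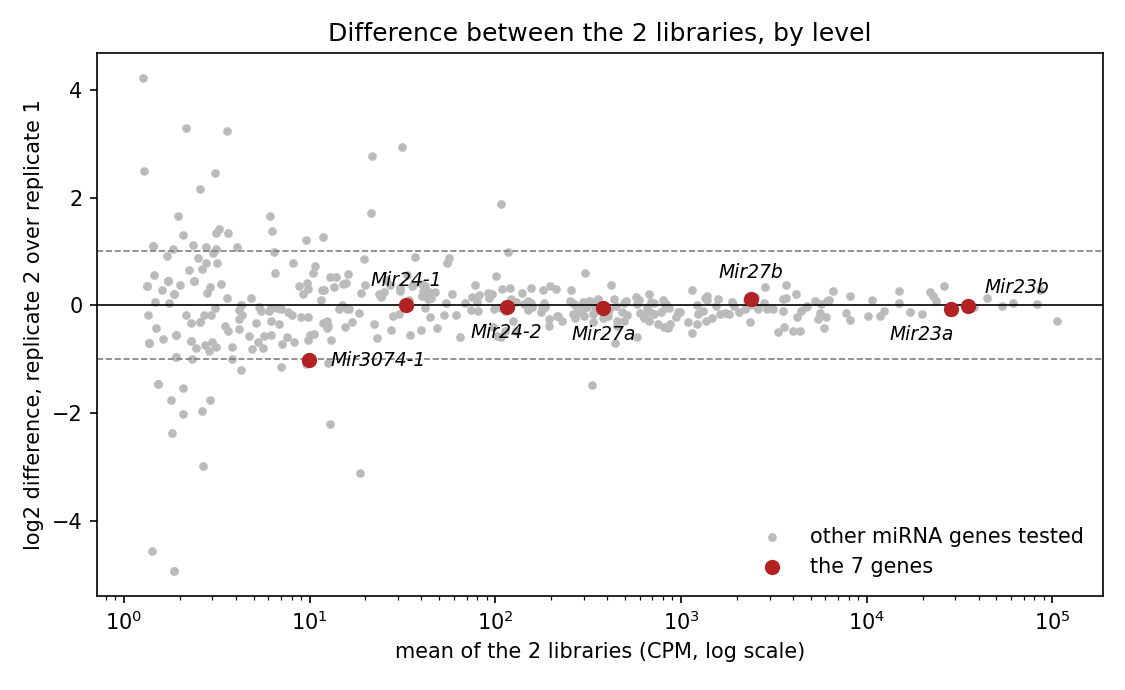
Log2 difference of replicate 2 over replicate 1 against the mean level of each miRNA gene tested. The x axis is mean CPM on a log scale, dashed lines mark 2-fold, red points are the 7 genes and grey points all others. Of the 7, Mir3074-1 lies at -1.01 and the rest between -0.058 and 0.12.

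The strand of the reads mattered at the miR-24 sites. Without strand, reads over miRNA genes on opposite strands were ambiguous and dropped, so Mir24-1, Mir24-2 and Mir3074-1 had 0 unstranded reads in both files. Mir23a, Mir27a, Mir23b and Mir27b, with no miRNA gene opposite them, had the same unstranded as sense count and 0 antisense reads in both. For Mir23b, 0 antisense reads stood beside 122927 and 137544 sense reads. At Mir24-1 the antisense column held 47 and 26 reads, which are the sense reads of Mir3074-1.

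Among reads placed at a single site, which leave out miR-24-3p and miR-3074-5p, Mir3074-1 held 28.8% of those on either strand in replicate 1 (exact 95% interval 22.02% to 36.4%) and 16.5% in replicate 2 (11.04% to 23.2%). At the chromosome 8 site, Mir3074-2 had 0 and 2 reads against 409 and 450 on Mir24-2, or 0% (up to 0.898%) and 0.442% (0.0536% to 1.59%). Among 22 pairs of opposite miRNA genes with at least 100 reads in each library, a limit set after the data were seen, the Mir24-1 site had the highest share of such reads on its lower strand, 22.7% over both libraries. How many reads were set aside was not measured for any pair, so the order holds for the counted reads alone. The next was Mir3107 opposite Mir486 with 3.62%, and in 13 of the 22 pairs no read fell on the lower strand. Few reads stand behind the share at the Mir24-1 site, 163 and 158 in replicates 1 and 2.

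**Figure D5:**
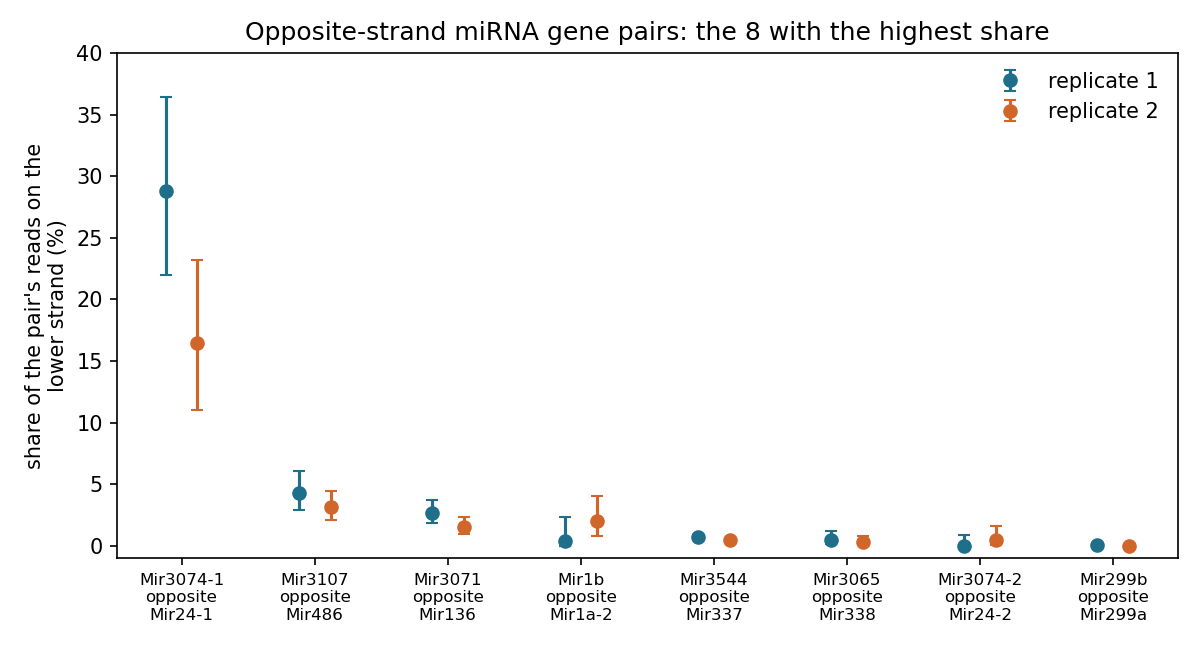
Share of the reads of a pair of opposite miRNA genes that fell on the lower of both strands, for the 8 pairs with the highest share. Only the 22 pairs with at least 100 reads in each library were ranked. The y axis is percent, points are the 2 libraries and bars exact 95% counting intervals. Mir3074-1 opposite Mir24-1 reaches 28.8% and 16.5%, and in every other pair shown the points lie at 4.31% or lower.

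Genes elsewhere that carry the same seeds added few counted reads. The seed of miR-24-3p also occurs in the mature miRNAs of Mir6413, Mir6410, Mir6369 and Mir5124b, and all 4 had 0 reads in both libraries. The seed of the miR-27-3p and the seed of miR-23a-3p were found in none of the RefSeq mature sequences searched from genes outside the 7. The seed of miR-3074-5p recurred in Mir3074-2, at 0.253 ± 0.358 CPM. That mature miRNA is identical at both of its sites, so reads that lie wholly within it were set aside. The level of Mir3074-2 is therefore no measure of miR-3074-5p or of its seed.

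The genes nearest in level over the 2 samples, by distance in log2(CPM + 1), come from different loci. Nearest to Mir23a were Mir379 (27877 ± 1633 CPM), Mir143 and Mir99a, and to Mir23b Mirlet7g (37633 ± 385 CPM), Mir379 and Mir126a. Nearest to Mir27b were Mir195a (2328 ± 9.92 CPM), Mir28a and Mir10a, and to Mir27a Mir503 (379 ± 41.7 CPM), Mir296 and Mir410. Nearest to Mir24-2 were Mir339 (115 ± 0.313 CPM), Mir350 and Mir125b-2, and to Mir24-1 Mir193a (34.3 ± 0.582 CPM), Mir26a-2 and Mir184. Mir3074-1 was nearest to Mir200b, with 13.1 and 6.08 CPM, then mmu-mir-3535 and Mir301b. Their distances ran from 0.019 for Mir339 to 0.49 for Mir126a.

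Other miRNAs known from the same processes ranged widely in level. Of 15 genes linked to angiogenesis 12 were detected, led by Mir378a (85869.6 ± 12007 CPM), Mir126a (44175 ± 3025 CPM) and Mir130a (6138 ± 242 CPM). Of the 14 tested, 5 were called higher in replicate 2 and 2 higher in replicate 1, beside 17.0% and 24.3% of all genes, and the median log2 difference was 0.028. Of 17 genes linked to muscle mass 13 were detected, led by Mir206, Mir322 (14923 ± 1989 CPM) and Mir351 (5914 ± 1219 CPM), with 4 called higher in replicate 2 and 5 in replicate 1 of 15 tested (17.0% and 24.3% of all genes) and a median of 0.14. All 16 matched genes linked to myoblast differentiation and Pax proteins were detected, led by Mir206, Mir214 (3341 ± 792 CPM) and Mir195a, with 2 of 16 called higher in each replicate (17.0% and 24.3% of all genes) and a median of -0.020. By counted reads, Mir23b and Mir23a stood below Mir206, Mir378a and Mir126a and above the other genes of these 3 lists.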

How the data were processed

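The deposited files hold raw read counts per miRNA gene for each library, in an unstranded, a sense and an antisense column, with no normalization by the authors. The columns have no header, and the sense column was recognised as the one that places most reads with a single alignment on miRNA genes. A text file that the authors deposited with each count table names mm10 and GENCODE M21. Aligner and trimming were not given in the sources used here. The summary entries of each file, for reads with no, several or ambiguous placements or outside miRNA genes, stayed out of totals and tests. Both arms of a hairpin add to its gene count.

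The 7 genes were taken by GENCODE symbol, and they and the gene lists were chosen with earlier results of these data known. Sense counts were scaled to 1e6 sense reads on miRNA genes per library (CPM). Intervals of 95% are exact Clopper-Pearson intervals and cover counting error only, since no molecular identifiers are given. A gene was called detected at 2 CPM in both libraries. The libraries were compared with an exact conditional binomial test (two-sided) on sense counts for genes with at least 10 counts in all (scipy 1.17.1), with Benjamini-Hochberg adjustment over all genes tested. The test was checked on simulated data with known changes and counting error alone. Such a check cannot show how the test behaves under spread between samples. Log2 differences add 0.5 to each count. Alternatives were edgeR 4.0.16 TMM and DESeq2 1.42.0 size factors (R 4.3.3), unstranded counts, no filter on counts, other cluster rules and single libraries. Named outside the 7 genes were those with an identical seed or mature sequence, the 3 nearest genes in log2(CPM + 1) over the libraries and the 3 highest of each list. Of the list symbols, Mir497a did not match. Hairpin and mature sequences are from RefSeq, build GRCm38.p6, in which all 7 genes matched a hairpin. Shared windows of 18 and 22 bases were searched on both strands of all 2202 GENCODE precursors, leaving out precursors that overlap the gene itself.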

Additional observations from a re-analysis of the deposited data

How the results depend on the processing

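No paired analysis was possible because both samples belong to 1 group. TMM and DESeq2 factors of the 2 libraries balance each other, so they could not test the mean levels or shares. With 2 libraries, leaving out either only returns the other, and the level of Mir3074-1 was 6.58 CPM without replicate 1 and 13.4 CPM without replicate 2. Per 1e6 reads of the file, levels were 14298 for Mir23b, 11643 for Mir23a, 969 for Mir27b, 157 for Mir27a, 47.2 for Mir24-2, 13.6 for Mir24-1 and 4.16 for Mir3074-1, and the cluster shares 1.53% (Mir23b) and 1.18% (Mir23a), because this total also counts reads on no miRNA gene. From unstranded counts the levels were 41783 for Mir23b, 33987 for Mir23a, 2839 for Mir27b, 457.7 for Mir27a and 0 for Mir24-2, Mir24-1 and Mir3074-1, and the shares 4.46% and 3.44%. The log2 difference of Mir23b between the libraries, -0.0078, became 0.021 with TMM, 0.019 with DESeq2 and 0.026 unstranded. The number of the 7 genes called with 2-fold fell from 1 to 0 with TMM, DESeq2 and unstranded counts. The Mir23b cluster rose from place 5 of 43 to place 2 of 34 with detection at 10 CPM. Apart from these, 41 alternative values kept their direction and call or moved by less than 1 SD, counts by less than 1.5 times. Some of the 41 could not move. The filter on counts does not enter a log2 difference, only its adjusted p. The unstranded miR-23 and miR-27 ratios rest on the same counts as the sense ones. Unstranded counts gave no miR-24 ratio and no cluster range.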

Other observations

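A fall in level from each gene to the next, 5′ to 3′, was counted after it was seen in both miR-23 clusters. It was present in 3 of the 13 clusters with at least 3 detected genes, the Mir23a and Mir23b clusters among them, and in 3 of the 6 with exactly 3 detected genes. The third was the cluster of Mir99b, Mirlet7e and Mir125a, whose range was 1.78-fold. In both miR-23 clusters the last step leads to a miR-24 gene, whose miR-24-3p reads were set aside. That step therefore holds for counted reads alone. The first gene was the highest in 8 of the 13. With at least 10 reads in each library in place of 100, an alternative chosen after seeing the data, the Mir24-1 site remained in place 1 among 24 pairs of opposite genes by the share of its lower strand. A 2-fold difference between the libraries in Mir3074-1 stood beside a 1.01-fold difference in Mir24-1 on the other strand of the same site.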
